A study of Mus musculus with 2 samples.

Results

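Cadherins and protocadherins were followed in 2 amplified RNA-seq libraries of newborn mouse midbrain. Members were the genes whose mouse symbol, looked up by gene identifier, began with Cdh and a number, with Pcdh, or was Celsr1, Celsr2 or Celsr3, which gave 96 of 43346 mouse genes in the tables. They comprised 18 classical cadherins, 5 other cadherins, 3 flamingo cadherins, 12 non-clustered protocadherins and 58 clustered protocadherins, of which 14 lie in the alpha, 22 in the beta and 22 in the gamma cluster.

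The libraries form a single group, midbrain of B6NCrl mice (a C57BL/6N strain) on postnatal day 0, from pup 1 (replicate 1) and pup 3 (replicate 2), with no treatment or mutation. Each was made by a SMART-type amplification from 13 pg of total RNA of an entire midbrain, given as 1 cell-equivalent, so the assay is labelled single-cell although no cell was isolated. Sex was not collected, and both pups point to the same donor record. No condition was compared, and values set side by side below compare 2 libraries, pup 1 and pup 3, with no test across pups.

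Cadherins are calcium-dependent adhesion proteins whose extracellular repeats bind the same or a related cadherin on the facing membrane. Classical cadherins link to the actin cytoskeleton through catenins and, in the brain, hold the neuroepithelium together and help to sort neurons and shape synapses. Clustered protocadherins are made by promoter choice: each alpha and gamma gene adds its own large variable exon to 3 constant exons shared by its cluster, each beta gene is a lone exon, and a neuron uses a few of them, which serves self-recognition of its branches.

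The tables held 26583225 expected counts for pup 1 and 33142647 for pup 3. Members held 0.363% of gene counts in pup 1 and 0.423% in pup 3. A count of 0 allows up to 3 counts, equal to 0.115 CPM (counts scaled to the library total) in pup 1 and 0.0926 CPM in pup 3. Counting error is all that intervals and floors cover here, since an amplified library holds many reads of each starting molecule. Levels are TPM, scaled by transcript length and library total, and detection means a TPM of at least 1. Ratios are of expected counts scaled by each library's gene total, pup 1 over pup 3, with exact 95% intervals, and a gene was listed as over 4-fold apart where that entire interval lay beyond 4-fold. In bulk RNA, fewer cells of a type and less RNA per cell cannot be told apart. All 5 neuronal markers were detected in both pups, with Tubb3 at 5927 TPM in pup 1 and 1794 TPM in pup 3, Stmn2 at 2056 TPM in pup 1 and 2565 TPM in pup 3, and Map2 at 342 TPM in pup 1 and 318 TPM in pup 3. Of 5 midbrain markers, Th (dopamine synthesis) had 46.9 TPM in pup 1 and 38.5 TPM in pup 3, and Meis2 had 31.75 TPM in pup 1 and 102 TPM in pup 3. Otx2 had 40.6 TPM in pup 1 and 0.40 TPM in pup 3, Pax7 0.14 TPM in pup 1 and 6.76 TPM in pup 3, and En1 was under 1 TPM in both.

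Of the 96 members, 29 were detected in both pups, 14 in pup 1 alone, 12 in pup 3 alone and 41 in neither. The 29 are 52.7% of the 55 members detected in at least 1 library, beside 60.8% for all mouse genes. The 41 others had at most 0.82 TPM, and 26 of them had no count in either library. Of 70 members with a count, 20 were over 4-fold higher in pup 1, where the share among all genes was 23.1%, and 18 were over 4-fold higher in pup 3, where it was 17.9%. Of the 29 members detected in both libraries, 6 were over 4-fold apart, 2 higher in pup 1 and 4 higher in pup 3. Detection in both leaves out genes under 1 TPM in either pup. The share among all genes detected in both was not counted, so nothing is read from the 6. By class, all 9 detected non-clustered protocadherins were detected in both pups, and none of the 9 detected beta genes was.

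Summed over each class, levels were 308 TPM in pup 1 and 156 TPM in pup 3 for classical cadherins, and 252 TPM in pup 1 and 537 TPM in pup 3 for non-clustered protocadherins. The 58 clustered genes together had 602 TPM in pup 1 and 588 TPM in pup 3 (595 ± 9.93 TPM, SD, n = 2). The alpha cluster had 114 TPM in pup 1 and 131 TPM in pup 3, and the beta cluster 64.1 TPM in pup 1 and 78.4 TPM in pup 3. The gamma cluster had 424 TPM in pup 1 and 379 TPM in pup 3, a log2 difference of 0.16. For the alpha and beta sums it was -0.20 and -0.29. With deposited FPKM these became -0.0031 for gamma, -0.36 for alpha and -0.45 for beta, since that unit shifts every sum alike. Of the genes behind the sums, 20 of the 32 detected clustered ones were detected in 1 pup only.

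**Figure D1:**
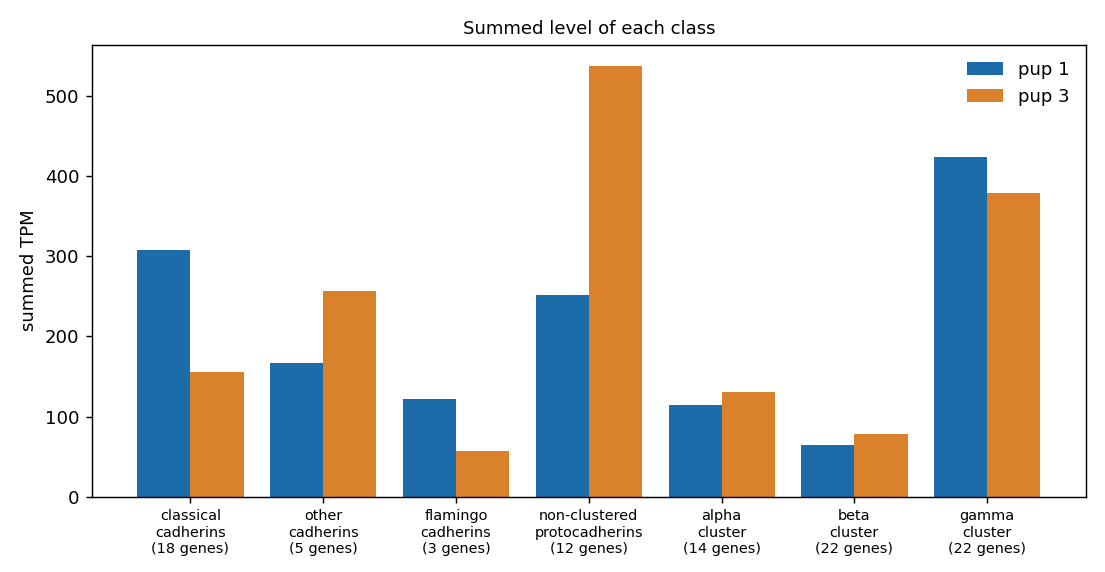
Summed TPM (vertical axis) of the 7 classes of cadherins and protocadherins in pup 1 (blue) and pup 3 (orange), with the number of genes in each class. Classical cadherins had 308 TPM in pup 1 and 156 TPM in pup 3, and the gamma cluster had 424 TPM in pup 1 and 379 TPM in pup 3, an order that depends on the scaling (log2 0.16 with TPM, -0.0031 with FPKM).

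The classical cadherins fall into type I, which docks a single tryptophan near its amino terminus into the partner molecule, and type II, which docks a pair of them. The start of the mature protein is shown for the members that carry the results below, as 36 coding bases of 12 codons read from GENCODE M21 transcripts on GRCm38. TGG in capitals marks tryptophan at codon 2 and, in type II, codon 4.
Cdh4: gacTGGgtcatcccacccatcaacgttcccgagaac
Cdh15: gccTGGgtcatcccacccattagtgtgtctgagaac
Cdh8: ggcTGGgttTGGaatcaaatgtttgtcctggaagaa
Cdh10: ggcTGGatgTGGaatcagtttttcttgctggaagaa
Cdh6: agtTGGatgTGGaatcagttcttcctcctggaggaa
Cdh11: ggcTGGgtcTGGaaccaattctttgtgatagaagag
Cdh13: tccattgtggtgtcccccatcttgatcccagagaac
Cdh4 and Cdh15 are type I, Cdh8, Cdh10, Cdh6 and Cdh11 are type II, and Cdh13, the lipid-anchored T-cadherin, has neither codon. Over the whole set, all 5 type I genes had TGG at codon 2 and not at codon 4, and all 13 type II genes had it at both. The start was found by searching for these residues, so tryptophan at codon 2 was set by the search. At codon 4 the search took tryptophan or the type I residues in any gene. Cdh13 was found with a separate pattern that holds no tryptophan, so these counts are no test of the motif. Each stretch lies in 1 coding exon: Cdh4 at chr2:179797560-179797595 on the plus strand, Cdh15 at chr8:122856592-122856627 on the plus strand, Cdh8 at chr8:99400759-99400794 on the minus strand, and Cdh10 at chr15:18899751-18899786 on the plus strand. The others are Cdh6 at chr15:13091683-13091718 on the minus strand, Cdh11 at chr8:102679645-102679680 on the minus strand and Cdh13 at chr8:118757416-118757451 on the plus strand.

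Of the 5 type I cadherins, the neural pair Cdh2 and Cdh4 was detected in both pups. Cdh4 (R-cadherin, ENSMUSG00000000305.8, chr2:179442431-179899373, mm10) had 49.0 TPM in pup 1 and 54.4 TPM in pup 3, or 51.7 ± 3.85 TPM (SD, n = 2). Its count ratio was 0.803 (95% interval 0.775 to 0.832). Cdh2 (N-cadherin, the main classical cadherin of neural tissue) had 51.0 TPM in pup 1 and 38.5 TPM in pup 3, with a count ratio of 1.12 (1.07 to 1.18). In pup 1 Cdh2 and Cdh4 thus stood at like levels, with overlapping deposited TPM intervals (47.6 to 51.1 for Cdh2 and 46.5 to 49.4 for Cdh4). In pup 3 Cdh4 was the higher of the pair. Cdh15 (M-cadherin, best known in muscle precursors) had 939 counts (21 TPM) in pup 1 and no count in pup 3. By the lower end of the 95% interval it was at least 316-fold higher in pup 1. The epithelial cadherins were at the floor: Cdh1 (E-cadherin) had 1 count in pup 1 and none in pup 3, and Cdh3 (P-cadherin) had none in either.

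Among 13 type II cadherins, Cdh8, Cdh10 and Cdh11 were detected in both pups. Cdh8 (ENSMUSG00000036510.13, chr8:99024471-99416471, mm10), a synaptic cadherin of defined neuron groups, had 98.4 TPM in pup 1 and 25.8 TPM in pup 3, with a count ratio of 2.93 (2.79 to 3.08). Cdh10, also neuronal, had 27.9 TPM in pup 1 and 32.6 TPM in pup 3, or 30.3 ± 3.36 TPM (SD, n = 2), and a count ratio of 0.746 (0.697 to 0.798). Cdh11, a cadherin of mesenchyme and of neurons, had 12.9 TPM in pup 1 and 3.21 TPM in pup 3, with a count ratio of 3.58 (3.14 to 4.10), just inside the 4-fold limit. Of 6 meningeal fibroblast markers, all 6 were detected in both pups, summing to 2908 TPM in pup 1 and 3980 TPM in pup 3. Ptgds made up most of that sum, at 2555 TPM in pup 1 and 3513 TPM in pup 3. Col1a1 alone had the higher TPM in pup 1, with 26.2 TPM there and 3.49 TPM in pup 3. Ptgds, Igf2, Dcn, Col1a2 and Lum were all higher in pup 3, Dcn with 51.1 TPM in pup 1 and 111 TPM in pup 3. The part of these cells in the Cdh11 values was not tested.

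The remaining type II genes were seen in 1 library or in none. Cdh6 (K-cadherin), which marks subsets of neurons in the developing brain, had 1805 counts and 43.7 TPM in pup 1 and none in pup 3. It was at least 608-fold higher in pup 1 by the interval. Cdh20 had 1.91 TPM in pup 1 and 0 in pup 3, and Cdh22 had 1.07 TPM in pup 1 and 0 in pup 3. Cdh12 ran the other way, with 9 counts (0.10 TPM) in pup 1 and 171 counts (1.36 TPM) in pup 3, a count ratio of 0.0655 (0.0295 to 0.127). Below 1 TPM in both libraries were Cdh7, Cdh9, Cdh18 and Cdh5, and Cdh19 and Cdh24 had no count. Cdh5 (VE-cadherin of endothelial junctions) had 12 counts in pup 1 and none in pup 3. Of 6 endothelial markers, 2 were detected in both pups and 2 in pup 3 alone, with sums of 151 TPM in pup 1 and 149 TPM in pup 3. Pecam1 had no count in pup 1 and 1 count in pup 3, and Tek had none in either. Cldn5 made up most of that sum, at 147 TPM in pup 1 and 115 TPM in pup 3. Kdr, Flt1 and Tie1 ran the other way, Kdr with 0.48 TPM in pup 1 and 17.8 TPM in pup 3, Flt1 with 2.83 TPM in pup 1 and 10.4 TPM in pup 3, and Tie1 with 0 TPM in pup 1 and 6.40 TPM in pup 3. Their part in the Cdh5 values was not tested. Of the 15 classical cadherins with a count, 5 passed the 4-fold rule toward pup 1 and 1 toward pup 3. Together these were 40%, beside 41.0% of all mouse genes with a count (23.1% toward pup 1 and 17.9% toward pup 3).

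Catenins, which tie classical cadherins to actin and to signalling, were read through 9 genes, of which 6 were detected in both pups. Ctnnb1 (beta-catenin) had 218 TPM in pup 1 and 167 TPM in pup 3, and Ctnna2, the neuronal alpha-catenin, had 77.1 TPM in pup 1 and 128 TPM in pup 3. Ctnnd2 (delta-catenin) had 43.1 TPM in pup 1 and 84.0 TPM in pup 3. Jup (plakoglobin) was over 4-fold apart, at 16.5 TPM in pup 1 and 135 TPM in pup 3. In all, 1 of the 9 catenins was over 4-fold higher in pup 1 and 3 were over 4-fold higher in pup 3. Together these were 44.4%, near the 41.0% of all mouse genes with a count. The 7 desmosomal cadherins, a separate branch of the family that builds desmosomes, had no gene detected in both pups: Dsc2 had 0 TPM in pup 1 and 13.9 TPM in pup 3, and Dsg1a, Dsg2, Dsg3, Dsg4, Dsc1 and Dsc3 had no count.

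Cdh13 (T-cadherin, ENSMUSG00000031841.14, chr8:118283733-119324921, mm10) had the highest mean level of the members outside the clusters. It is held in the membrane by a lipid anchor, lacks the catenin-binding tail and acts in axon guidance. It had 166 TPM in pup 1 and 209 TPM in pup 3, or 188 ± 30.3 TPM (SD, n = 2), while its count ratio was 1.26 (1.22 to 1.30), so level and count pointed in opposite directions. A 620-base processed transcript took 112.66 counts and 7.98% of the gene's TPM in pup 1 and 1382 counts and 55.6% in pup 3. On protein-coding transcripts alone Cdh13 had 152 TPM in pup 1 and 92.6 TPM in pup 3. Pcdh8 and Pcdh19 showed the same split between level and count, each through a short transcript, and only these 3 of the 29 members detected in both pups did.

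Cdh23 and Pcdh15 together form the tip links of inner ear hair cells. Pcdh15 (ENSMUSG00000052613.12, chr10:73099342-74649737, mm10) had 10.4 TPM in pup 1 and 8.32 TPM in pup 3, and the deposited intervals of those levels overlapped. Cdh23 had no count in pup 1 and 655 counts (47.2 TPM) in pup 3, but only 39.97 of these counts, or 0.16 TPM, fell on a full-length coding transcript. The rest fell on processed transcripts of 438 and 1052 bases, and these made up nearly all of the Cdh23 level in pup 3. Cdh16, Cdh17 and Cdh26, known from kidney, gut and other epithelia, had no count in either library.

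Flamingo cadherins are seven-pass membrane proteins of planar cell polarity that guide axons. Celsr2 (ENSMUSG00000068740.9, chr3:108390851-108415552, mm10) had 87.1 TPM in pup 1 and 26.5 TPM in pup 3, with a count ratio of 1.44 (1.37 to 1.52). Much of its level lay on short transcripts: its full-length coding transcript had 1604 counts (9.37 TPM) in pup 1 and 2487 counts (10.4 TPM) in pup 3, and retained-intron transcripts of 664 and 580 bases had 24.2 and 21.8 TPM in pup 1 and 0 TPM in pup 3. Celsr3 had 35.1 TPM in pup 1 and 30.1 TPM in pup 3 with overlapping deposited intervals. Its full-length coding transcript had 686 counts in pup 1 and 3.62 counts in pup 3, where a 767-base retained-intron transcript took 457 of the 463 counts. Like levels of Celsr3 thus came from different transcripts. Celsr1, the member of the family best known in progenitors and epithelia, had no count in either library.

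Of 9 partners of the flamingo cadherins in planar polarity, 3 were detected in both pups. Vangl2 had 59.8 TPM in pup 1 and 21.6 TPM in pup 3, and the receptor Fzd3 had 30.3 TPM in pup 1 and 23.5 TPM in pup 3. Dvl2 had 17.3 TPM in pup 1 and 2.23 TPM in pup 3, and Dvl1 had 8.76 TPM in pup 1 and 0 TPM in pup 3. Vangl1 had no count. In this list 4 of the 8 genes with a count were over 4-fold higher in pup 1 and 1 was over 4-fold higher in pup 3, where the shares among all genes were 23.1% and 17.9%.

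**Figure D2:**
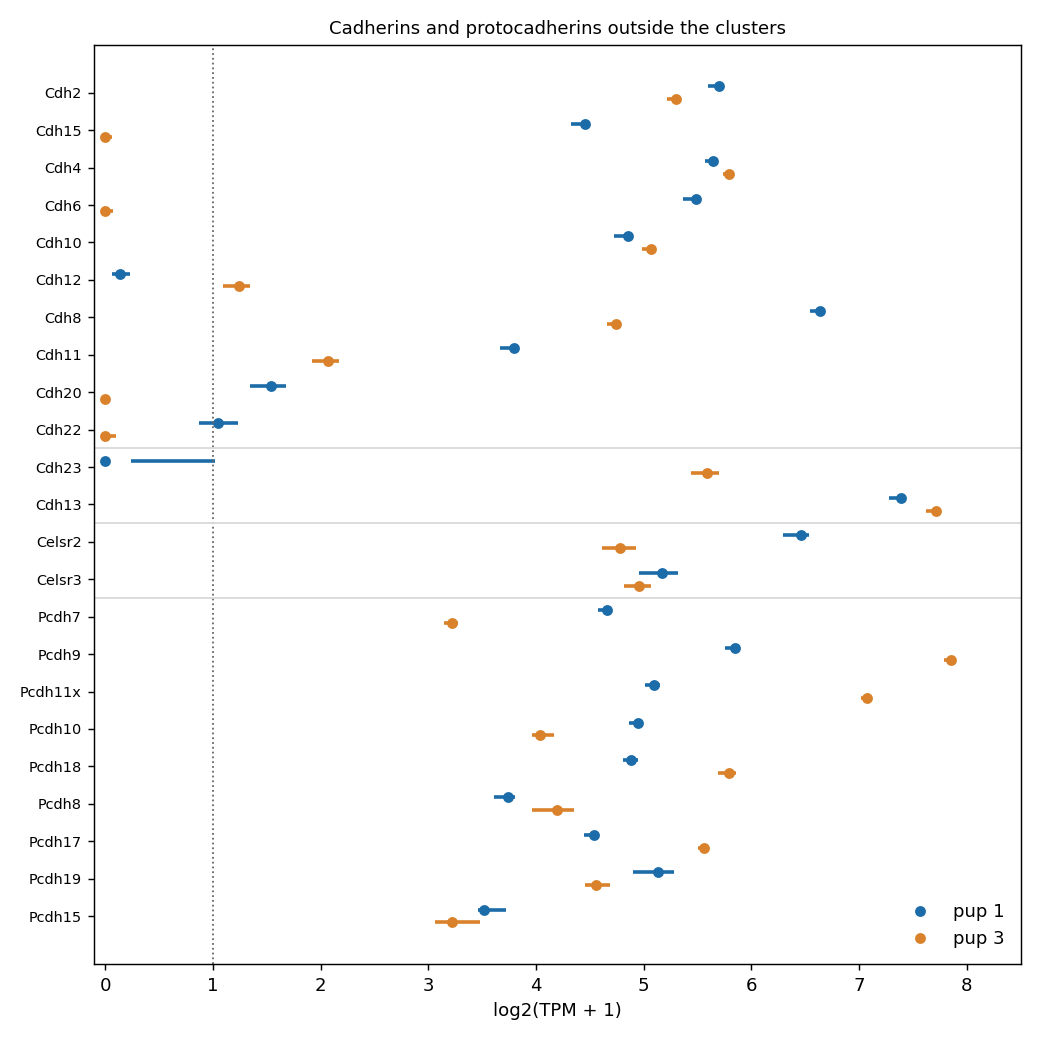
Levels on the log2(TPM + 1) scale (horizontal axis) of the 23 detected members outside the clusters, pup 1 in blue above pup 3 in orange. Points are deposited TPM, bars the deposited intervals of TPM (for Cdh23 in pup 1 the interval does not reach the value of 0), and the dotted line marks a TPM of 1. Only for Celsr3 and Pcdh15 do the bars of the pups overlap, while Cdh15, Cdh6, Cdh20 and Cdh22 sit at 0 in pup 3.

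Non-clustered protocadherins have their own genes and cytoplasmic tails and act in cell sorting, axon growth and synapse formation. The delta-1 genes have an additional repeat and motif compared with delta-2. Pcdh9 (delta-1, ENSMUSG00000055421.4, chr14:93013410-93890679, mm10) had 56.8 TPM in pup 1 and 230 TPM in pup 3, with a count ratio of 0.229 (0.221 to 0.237). By this scaling it was the only delta gene with a TPM of 1 or more that was over 4-fold apart, a call lost under TMM, DESeq2 and spike-in scaling, where its log2 count ratio was -1.94, -1.93 and -2.02. Pcdh11x (delta-1, chromosome X) had 33.2 TPM in pup 1 and 134 TPM in pup 3, with a count ratio of 0.340 (0.328 to 0.352). Pcdh7 (delta-1), in contrast, had 24.3 TPM in pup 1 and 8.35 TPM in pup 3, with a count ratio of 2.58 (2.43 to 2.74). Pcdh1, also delta-1, had 0 TPM in pup 1 and 0.61 TPM in pup 3. The higher sum of non-clustered protocadherins in pup 3 thus came mostly from Pcdh9 and Pcdh11x.

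All 5 delta-2 genes were detected in both pups and none was over 4-fold apart. Pcdh18 (ENSMUSG00000037892.9, chr3:49743296-49757325, mm10) was highest by mean, with 28.6 TPM in pup 1 and 54.4 TPM in pup 3, and a count ratio of 0.575 (0.547 to 0.604). Pcdh17, which marks cortical and basal ganglia circuits, had 22.2 TPM in pup 1 and 46.3 TPM in pup 3, with a count ratio of 0.428 (0.411 to 0.445). Pcdh10, whose loss disturbs axon tracts of the forebrain, had 29.9 TPM in pup 1 and 15.5 TPM in pup 3, with a count ratio of 1.76 (1.68 to 1.86). Both Pcdh17 and Pcdh18 were higher in pup 3, and Pcdh10 was higher in pup 1. Pcdh19, an X-linked gene whose protein pairs with N-cadherin and whose mutations cause an epilepsy in people, had 34.1 TPM in pup 1 and 22.5 TPM in pup 3, while its count ratio was 0.674 (0.638 to 0.711). A 335-base transcript marked for nonsense-mediated decay made up 40.8% of Pcdh19 TPM in pup 1 from 53.49 counts, and coding transcripts had 15.0 TPM in pup 1 and 19.8 TPM in pup 3. Pcdh8 had 12.3 TPM in pup 1 and 17.3 TPM in pup 3, and on coding transcripts 12.3 TPM in pup 1 and 5.02 TPM in pup 3. Outside these groups, Pcdh12 (an endothelial protocadherin) and Pcdh20 had no count in either library.

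The clustered genes lie in a row on chromosome 18 (mm10), the alpha genes at 36930184-37187661, the beta genes at 37264938-37524479 and the gamma genes at 37661793-37841873. Of 58 clustered genes, both pups read 12 at the detection level, while 10 were detected in pup 1 alone, 10 in pup 3 alone and 26 in neither, so each library read 22 of them. The 10 genes seen in pup 1 alone had 7.89 to 45.1 TPM there (median 18.2) and 0 TPM in pup 3. The 10 seen in pup 3 alone had at most 0.02 TPM in pup 1 and 4.64 to 30.9 TPM in pup 3 (median 19.3). In the library without detection the deposited upper bound of TPM was below 1 for 19 of these 20 genes, Pcdhgc5 in pup 1 being the exception at 1.75. Of 41 clustered genes with a count, 15 passed the 4-fold rule toward pup 1 and 14 toward pup 3, together 70.7%, beside 41.0% of all mouse genes with a count.

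**Figure D3:**
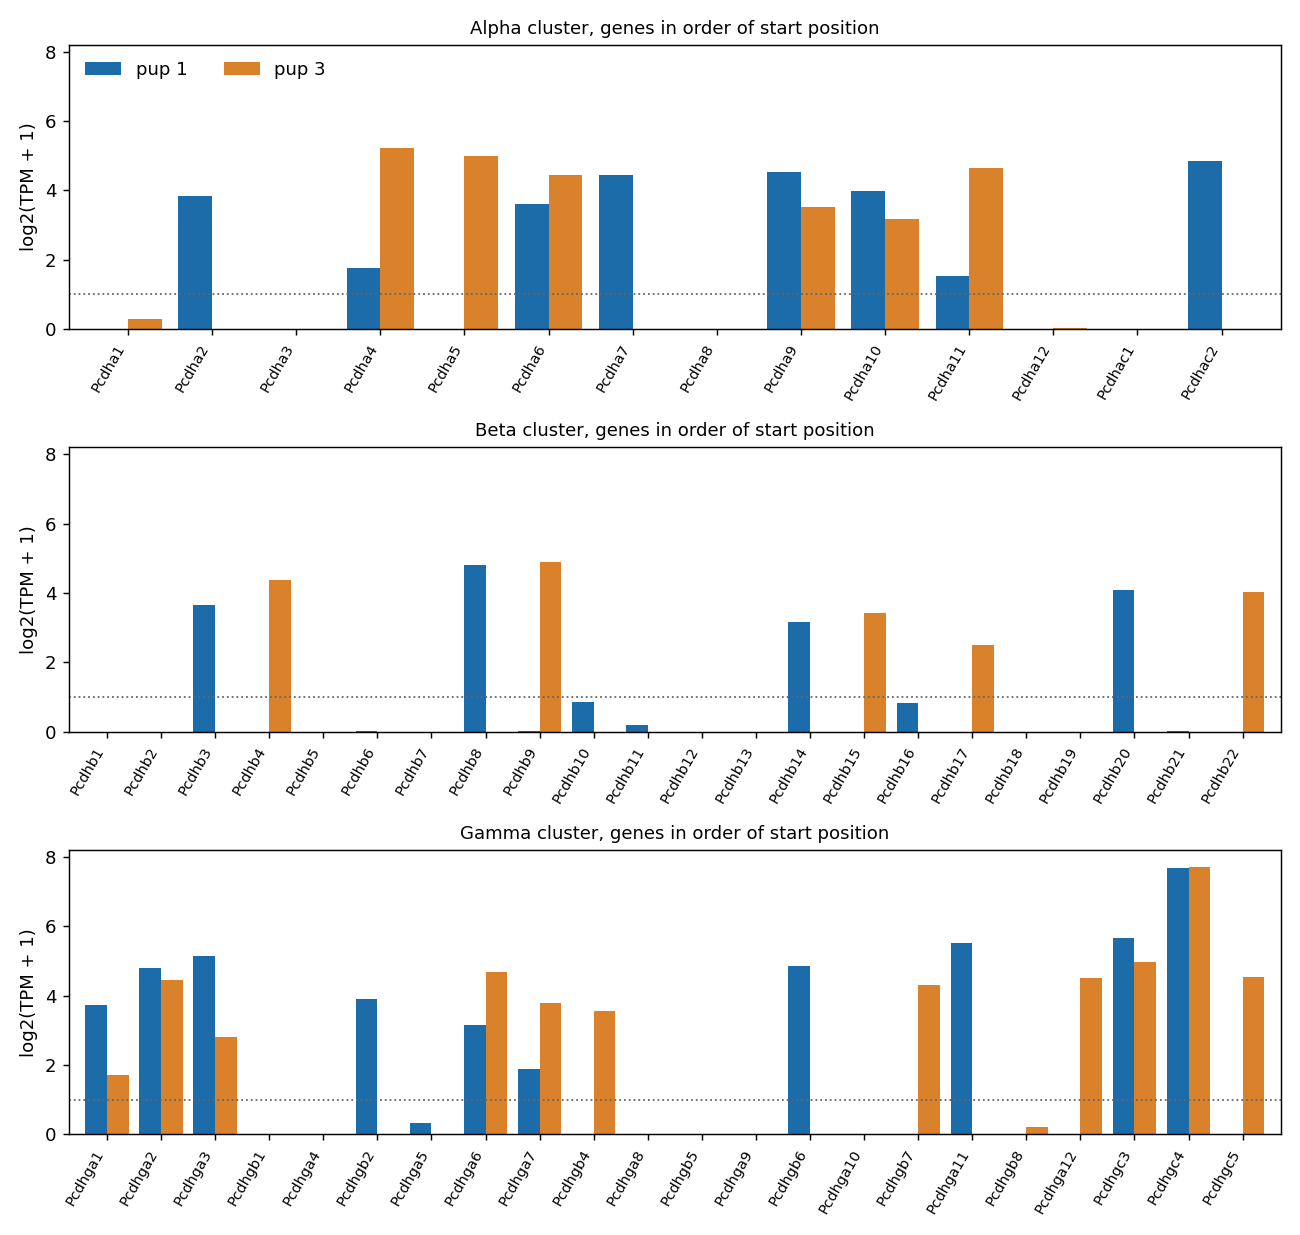
Levels on the log2(TPM + 1) scale (vertical axes) of the clustered protocadherins, with genes of the alpha, beta and gamma clusters in order of start position, pup 1 in blue and pup 3 in orange. The dotted line marks a TPM of 1. No beta gene passes it in both pups, while 5 alpha and 7 gamma genes do, and Pcdhgc4 is the highest bar in both.

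Of the 14 alpha genes, 5 were detected in both pups. In order along the cluster, Pcdha2 had 13.3 TPM in pup 1 and 0 TPM in pup 3. Pcdha4 (ENSMUSG00000104252.1, 36952648-37187661 on chromosome 18), the alpha gene with the highest mean, had 2.40 TPM in pup 1 and 36.6 TPM in pup 3, with a count ratio of 0.0584 (0.0506 to 0.0674). Pcdha5 had 0 TPM in pup 1 and 30.9 TPM in pup 3. The level was higher in pup 1 for Pcdha2 and in pup 3 for Pcdha4 and Pcdha5.

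Pcdha6 had 11.3 TPM in pup 1 and 20.6 TPM in pup 3, with a count ratio of 0.437 (0.404 to 0.473). Pcdha7 had 20.6 TPM in pup 1 and 0 TPM in pup 3, and Pcdha9 had 22.1 TPM in pup 1 and 10.4 TPM in pup 3. The gene ENSMUSG00000007440.10, which the symbol table also calls Pcdha11 and which starts where RefSeq places Pcdha10, is called Pcdha10 here and had 14.8 TPM in pup 1 and 8.09 TPM in pup 3. Pcdha6, Pcdha9 and Pcdha10 were the alpha genes read in both pups within 4-fold. Pcdha11 (ENSMUSG00000102206.1) had 1.87 TPM in pup 1 and 23.8 TPM in pup 3, almost all on a 625-base transcript of which 32.8% is its own sequence, from 16.02 counts in pup 1 and 285.81 in pup 3. Pcdha1 had 0 TPM in pup 1 and 0.23 TPM in pup 3, Pcdha12 had 0 TPM in pup 1 and 0.02 TPM in pup 3, and Pcdha3 and Pcdha8 had no count.

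The C-type genes at the end of the alpha and gamma clusters are known to be used by many neurons without the random choice of the others. Pcdhac2 (ENSMUSG00000102697.1, 37143503-37187657 on chromosome 18), known for spacing the branches of serotonin axons, had 2614 counts and 27.7 TPM in pup 1, the highest alpha level there. It had no count in pup 3 and was at least 881-fold higher in pup 1 by the interval. Pcdhac1 had no count in either. Of the 5 C-type genes in the alpha and gamma clusters, 2 were detected in both pups, beside 10 of the 53 other clustered genes. Among genes detected in at least 1 pup these were 2 of 4 (50%) and 10 of 28 (35.7%), beside 60.8% of all mouse genes. The 2 were Pcdhgc3 and Pcdhgc4, whose transcripts are described below, and nothing is read from so few genes.

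The beta cluster held no gene read in both pups. Of its 22 genes, 4 were detected in pup 1, 5 others in pup 3 and 13 in neither. The share read in both was thus 0 of the 9 detected, beside 60.8% of all mouse genes detected in at least 1 library. Pup 1 read Pcdhb3 at 11.7 TPM, Pcdhb8 at 26.9 TPM, Pcdhb14 at 7.89 TPM and Pcdhb20 at 15.9 TPM. Pup 3 read Pcdhb4 at 19.9 TPM, Pcdhb9 at 29.0 TPM, Pcdhb15 at 9.73 TPM, Pcdhb17 at 4.64 TPM and Pcdhb22 at 15.2 TPM. In the other pup each of these had no count, apart from Pcdhb9 (ENSMUSG00000051242.1, 37400855-37403909 on chromosome 18), which had 1 count in pup 1 and 1950 counts in pup 3, a ratio of 0.00064 (1.6e-05 to 0.0036).

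Beta genes are not spliced to shared exons, so their reads can be told apart more readily. Of 12 beta expected counts of 10 or more, 11 were whole numbers within 0.05, against 2 of 15 in the alpha and 5 of 23 in the gamma cluster, where reads were divided among genes. The deposited posterior SD was at most 2.88% of these beta counts, and up to 36.1% in the alpha and 22.6% in the gamma cluster. Low beta counts came from pup 1: Pcdhb10 had 37 counts and Pcdhb16 had 65 counts there, and both had none in pup 3. Pcdhb11 had 10.07 counts in pup 1, Pcdhb6 and Pcdhb21 had about 1, and Pcdhb1, Pcdhb2, Pcdhb5, Pcdhb7, Pcdhb12, Pcdhb13, Pcdhb18 and Pcdhb19 had none in either pup.

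Among 22 gamma genes, 7 were detected in both pups. In the A subfamily, Pcdhga2 (ENSMUSG00000103332.1, 37668953-37841870 on chromosome 18) had 27.0 TPM in pup 1 and 20.8 TPM in pup 3, or 23.9 ± 4.36 TPM (SD, n = 2), with a count ratio of 1.15 (1.09 to 1.23). Pcdhga1 had 12.2 TPM in pup 1 and 2.28 TPM in pup 3, and Pcdhga3 had 34.4 TPM in pup 1 and 6.06 TPM in pup 3, with count ratios of 4.77 (4.14 to 5.54) and 5.05 (4.63 to 5.51). Pcdhga7 ran the other way, with 2.69 TPM in pup 1 and 12.9 TPM in pup 3 and a count ratio of 0.185 (0.159 to 0.215), and Pcdhga6 had 7.84 TPM in pup 1 and 24.7 TPM in pup 3. Pcdhga2 was the gamma A gene whose libraries lay closest. Pcdhga11 had 45.1 TPM in pup 1 and 0 TPM in pup 3, at least 1153-fold higher in pup 1 by the interval. Pcdhga12 had 0 TPM in pup 1 and 21.9 TPM in pup 3, with an upper end of the count ratio at 0.00185. Pcdhga5 had 0.26 TPM in pup 1 and 0 TPM in pup 3, and Pcdhga4, Pcdhga8, Pcdhga9 and Pcdhga10 had no count.

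Of the 7 gamma B genes, 3 were detected in neither pup. None of the 4 detected in at least 1 pup was read in both, beside 60.8% of all mouse genes read in both. Nothing is read from so few genes. Pcdhgb2 had 13.8 TPM and Pcdhgb6 (ENSMUSG00000103088.1, 37742094-37841873 on chromosome 18) had 27.7 TPM in pup 1, and both had 0 TPM in pup 3. Pcdhgb4 and Pcdhgb7 had 0 TPM in pup 1, against 10.7 and 18.8 TPM in pup 3. Pcdhgb8 had 0 TPM in pup 1 and 0.17 TPM in pup 3, and Pcdhgb1 and Pcdhgb5 had no count. In the gamma C group, Pcdhgc3 had 49.8 TPM in pup 1 and 30.3 TPM in pup 3, with a count ratio of 1.26 (1.20 to 1.33). Its transcripts differed between the libraries, since a form marked for nonsense-mediated decay held 97.8% of its TPM in pup 1 and 47.0% in pup 3. Pcdhgc5 had 0 TPM in pup 1 and 22.2 TPM in pup 3.

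Pcdhgc4 (ENSMUSG00000023036.10, 37815079-37841873 on chromosome 18), which mice need for the survival of many neurons, was the most abundant clustered gene in both pups. It had 204 TPM in pup 1 and 209 TPM in pup 3, or 206 ± 3.54 TPM (SD, n = 2), with overlapping deposited intervals. Its count ratio of 0.879 (0.856 to 0.903) turned to the other side of 1 under TMM and DESeq2 scaling. It made up 48.0% of the gamma sum in pup 1 and 55.0% in pup 3. The next clustered gene by mean was Pcdhgc3 at 40.0 ± 13.8 TPM (SD, n = 2).

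By TPM, 70.3% of the Pcdhgc4 level in pup 1 and 56.7% in pup 3 lay on its short coding transcript, ENSMUST00000195239.1. This transcript has 2272 bases, of which 153, or 6.73%, are its own and the others are shared within the cluster. It was given 5072 counts in pup 1 and 5855 in pup 3, which is 56.5% of the gene's counts in pup 1 and 46.1% in pup 3. The full-length coding transcript, with 57.8% of its own bases, had 30.2 TPM in pup 1 and 15.4 TPM in pup 3, a level like that of other gamma genes. A retained-intron transcript made wholly of bases that no other gamma gene shares had 1476 counts and 30.2 TPM in pup 1 and 5122 counts and 74.9 TPM in pup 3. It held 16.4% of the gene's counts in pup 1 and 40.3% in pup 3. Reads of the constant exons could come from any gamma gene, and how far that sets the level of Pcdhgc4 was not tested. Without Pcdhgc4 the gamma sum was 221 TPM in pup 1 and 171 TPM in pup 3. For comparison, the full coding transcripts with counts had 45.1% to 51.4% of their bases to themselves in the alpha cluster and 54.5% to 58.3% in the gamma cluster.

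**Figure D4:**
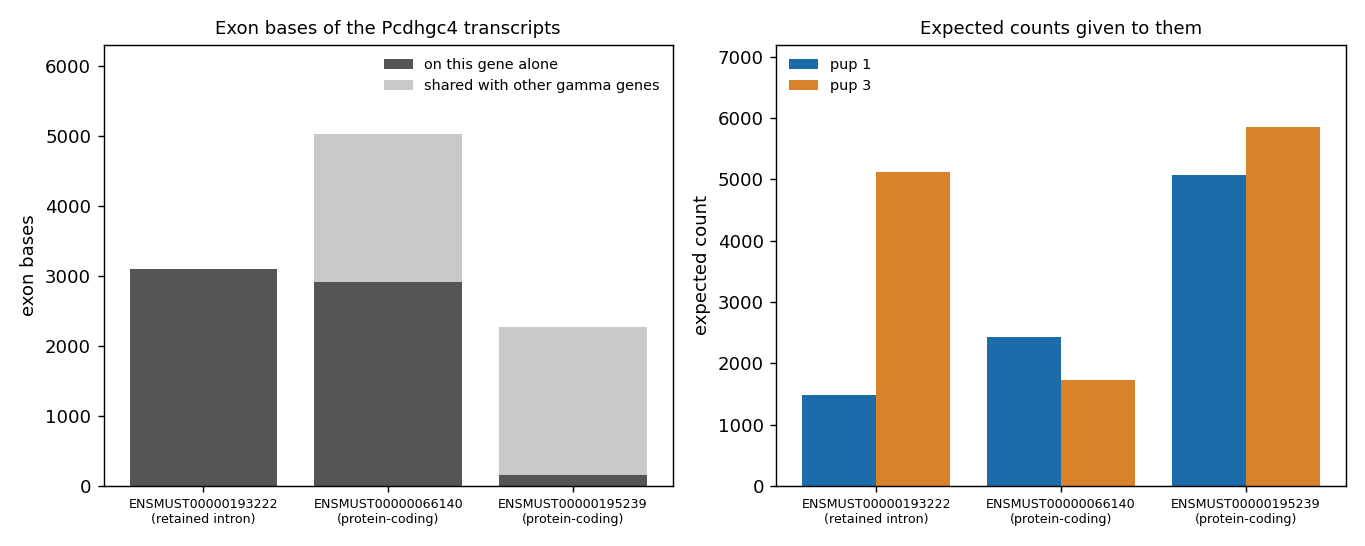
The left panel shows exon bases of the 3 Pcdhgc4 transcripts, split into bases on this gene alone and bases shared with other gamma genes. The right panel shows the expected counts given to each transcript in pup 1 (blue) and pup 3 (orange). The transcript with 153 bases of its own received the most counts in both pups, 5072 in pup 1 and 5855 in pup 3.

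To set this against other genes in a common range of levels, genes with 5 to 50 TPM in the library where they were higher were counted. Of 30 clustered genes in that range, 11 (36.7%) were detected in both pups: 5 of 9 alpha, 0 of 8 beta and 6 of 13 gamma genes. Outside the clusters it was 9 of 12 members (75.0%), and across all mouse genes 50.4%. Immunoglobulin-type adhesion genes, a family of neural adhesion proteins outside the cadherins, had 5 of 11 (45.5%) in that range. Counted without regard to level, 13 of 19 genes of that family were detected in both pups, among them Ncam1 at 1003 TPM in pup 1 and 315 TPM in pup 3, and L1cam at 136 TPM in pup 1 and 118 TPM in pup 3. That range by the higher library was chosen after seeing the data. The planned comparison used classes of mean TPM. Clustered genes detected in both pups were 0 of 3 at 1 to 5 TPM, beside 19.8% of all mouse genes. At 5 to 10 TPM they were 2 of 10 (20%), beside 34.1%. At 10 to 20 TPM they were 6 of 14 (42.9%), beside 47.9%, and at 20 to 50 TPM 3 of 4 (75%), beside 80.0%. These shares are counts over genes of 2 libraries and carry no test.

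Across the 55 detected members, log2(TPM + 1) in pup 1 and pup 3 had a Pearson r of 0.11 and a Spearman rho of 0.23, beside 0.47 and 0.49 over 12144 mouse genes, and r became -0.056 with a pseudocount of 0.1. Over the 23 members outside the clusters r was 0.52 (rho 0.52), and over the 32 clustered genes it was -0.32 (rho -0.33), or -0.56 without Pcdhgc4. The points share 2 libraries, and genes below detection in both were left out, so that 20 of these 32 genes entered through the library where they were high. With no such filter r was 0.53 over all 96 members, 0.80 over the 38 outside the clusters and 0.24 over the 58 clustered genes. The sign for the clustered genes thus depended on the filter, and nothing is read from it.

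**Figure D5:**
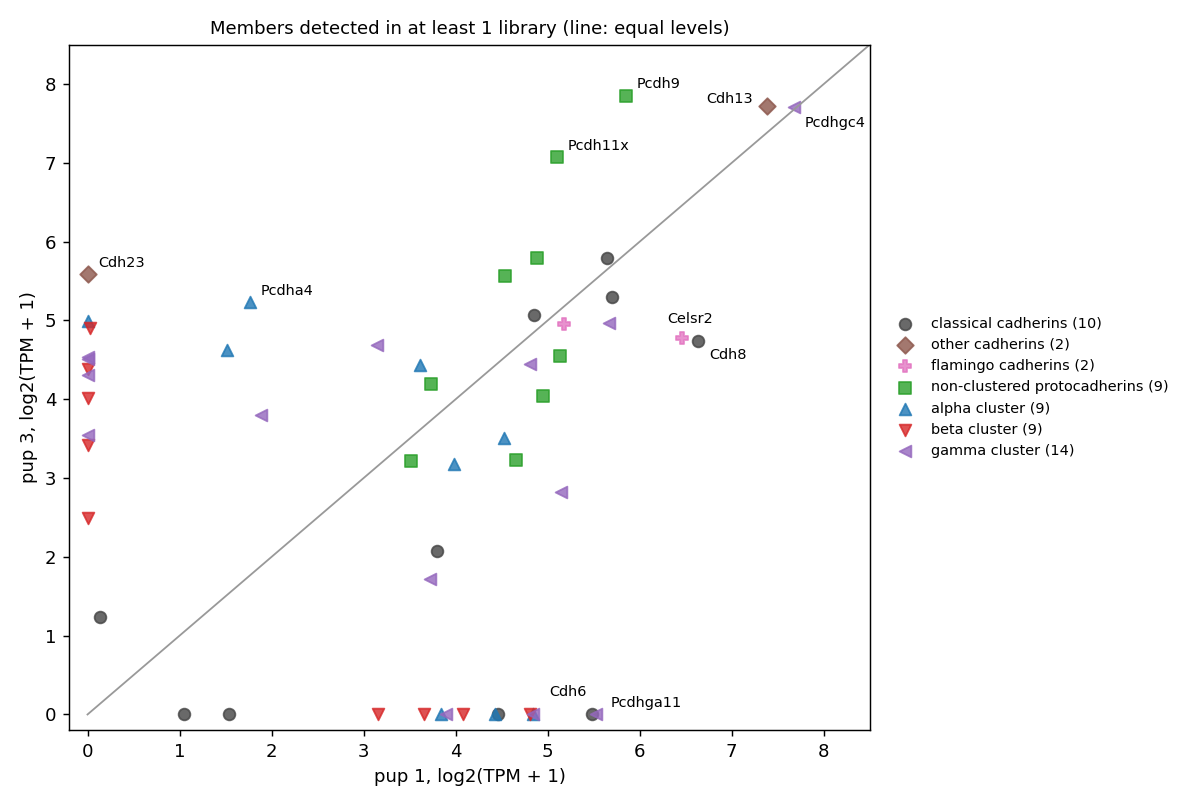
Each point is a member detected in at least 1 library, on the log2(TPM + 1) scale, with pup 1 on the horizontal and pup 3 on the vertical axis; symbols give the class and its number of genes. Beta genes (red) lie along the axes, non-clustered protocadherins (green) lie nearer the line of equal levels, and r over the 55 points is 0.11 (-0.056 with a pseudocount of 0.1).

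Genes known to act on promoter choice in the clusters were read in both pups for the most part. Of 11 such genes, 9 were detected in both, which is 90% of the 10 detected in at least 1 library, beside 60.8% of all mouse genes. Of the 10 with a count, 1 was over 4-fold apart, or 10% beside 41.0% of all mouse genes. These shares rest on few genes and carry no test. The insulator protein gene Ctcf had 30.1 TPM in pup 1 and 33.1 TPM in pup 3, or 31.6 ± 2.15 TPM (SD, n = 2). The cohesin genes Smc1a and Rad21 had 63.8 and 54.3 TPM in pup 1 and 55.9 and 37.6 TPM in pup 3. Smc3, the highest of the list by mean, had 40.4 TPM in pup 1 and 85.2 TPM in pup 3. Nipbl had 0.86 TPM in pup 1 and 1.61 TPM in pup 3. Stag1, another cohesin gene, had 42.2 TPM in pup 1 and 17.6 TPM in pup 3 and was the gene over 4-fold higher in pup 1 by count. Dnmt3b, a DNA methyltransferase, had no count in either pup.

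The pups also differed in the transcripts read. Among 21 members with 2 or more transcripts and no fewer than 50 counts per library, the most abundant transcript by TPM was the same in 9 (42.9%), beside 62.8% of 5311 mouse genes. Ranking by TPM lets short transcripts lead on few counts, as for Pcdh19 in pup 1 (335 bases, 53.49 counts). Ranked by counts the share of members was higher (given below), and that share over all mouse genes is not given here. The 9 were Cdh2, Cdh4, Pcdh7, Pcdh9, Pcdh18, Pcdha4, Pcdhga1, Pcdhga7 and Pcdhgc4. Pcdhga1 and Pcdhga7 each had 100% of their TPM on the same transcript in both pups, and Cdh4 had 100% in pup 1 and 99.8% in pup 3 on ENSMUST00000000314. In Cdh8 the coding form ENSMUST00000142129 held 70.1% of TPM in pup 1 and 0% in pup 3, where another coding form held 98.7%. Cdh10, Pcdh10, Pcdh11x, Pcdh15 and Pcdha6 also changed between coding forms. In Cdh13, Pcdh8, Pcdh19, Celsr2, Celsr3 and Pcdhgc3 a form not annotated as protein-coding led in at least 1 pup.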

How the data were processed

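RNA-seq libraries of 2 pups were used as 1 group. Per the file headers, reads were placed on mm10 with GENCODE M4. Aligner, quantification program and use of strand were not given in the sources used here, so genes that overlap on opposite strands are uncertain. The authors deposited expected counts, which divide reads that match several genes so that many are not whole, and rounding was applied only for intervals. The deposited TPM and FPKM values are counts scaled by effective length, over all rows of a table, tRNA and spike-in rows included. Deposited percent values give the share of a gene's TPM on each transcript. Deposited score columns hold the bounds of TPM intervals, whose level is not given, and posterior standard deviations of counts.

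Symbols, coordinates, exons and coding sequence came from GENCODE M21 on GRCm38 (mm10), with RefSeq used to tell Pcdha10 from Pcdha11. Of 280 member transcripts, 17 had another length in M21, none of them clustered. Detection was a TPM of 1 or more. Count ratios used totals over mouse genes and exact (Clopper-Pearson) 95% intervals. For genes without a count in 1 library the ends of these intervals gave the bounds, and the floor of 3 counts per library describes depth. Bases were called shared where exons of another gene of the same cluster covered them. The interval rule was tried on simulated data that held counting error alone. That simulation lacks the error added by amplification, so it does not show how the rule performs on these libraries. Every detected member was named with both levels, members below detection by name, and coordinates were given for the highest mean in each class. From other lists at most 4 genes by mean TPM, those without counts and those bearing on a statement were named. The members and lists were chosen with earlier results of these data known. Tables were handled with pandas 2.3.3 and numpy 2.4.6 in Python 3.11.15, intervals came from scipy 1.17.1, sequences were read with biopython 1.88, and figures were drawn with matplotlib 3.10.9. Scaling factors came from DESeq2 1.42.0 and edgeR 4.0.16 in R 4.3.3, with no other use of either. Alternatives were other detection limits, scalings, units, pseudocounts, transcript rules and each library alone. The alternatives on protein-coding transcripts and without Pcdhgc4, and the range of levels by the higher library, were chosen after seeing the data. Some genes of the lists are not reported by name here.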

Additional observations from a re-analysis of the deposited data

How the results depend on the processing

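With 2 libraries no error across pups can be set beside a count of genes. Depth sets only the floor of 3 counts, while amplification from 13 pg of RNA adds error that the intervals leave out. At a TPM of 10 or more, 19 members and 5 clustered genes were detected in both pups, fewer than the 29 and 12 at a TPM of 1. The other detection limits gave 28 to 31 members and 11 or 12 clustered genes. Taken alone, each library had 22 clustered genes, a range of 22 to 22, and 41 or 43 members. TMM, DESeq2 and spike-in scaling shifted all log2 ratios by 0.19, 0.20 and 0.11, kept 20 members over 4-fold higher in pup 1 and left 17 in pup 3, Pcdh9 being the call lost. TMM and DESeq2 scaling turned the log2 count ratio of Pcdhgc4 to 0.0048 and 0.014, the cause being the shift itself. FPKM differs from TPM by a constant per library and shifted every log2 sum by -0.16, to -0.36 for alpha and -0.0031 for gamma. The gamma difference was 0.37 without Pcdhgc4 and 0.011 with counts per library total, where the cause was not tested. The correlation across members was -0.056 with a pseudocount of 0.1 and 0.53 with all members kept, where genes at 0 in both pups enter. The same leading transcript was found in 12 of 21 members by counts and in 10 of 22 with a minimum of 10 counts. No paired analysis was possible because both libraries form a single group.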

Other observations

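Enzymes that cleave cadherins were read in both pups for 4 of 5 genes listed. Ncstn, a part of gamma-secretase, had 145 TPM in pup 1 and 141 TPM in pup 3, or 143 ± 2.44 TPM (SD, n = 2). Psen2 had 0.90 TPM in pup 1 and 94.0 TPM in pup 3. The sheddase Adam10, which cuts N-cadherin and gamma protocadherins, had 5 TPM in pup 1 and 23.1 TPM in pup 3. Of the 5 genes, 2 (40%) were over 4-fold higher in pup 3 and none in pup 1, near the 41.0% of all mouse genes called in either direction.

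More distant relatives of the family were also read. Of 9 Fat, Dachsous and calsyntenin genes, 5 were detected in both pups. Clstn3, a synaptic calsyntenin, had 247 TPM in pup 1 and 78.1 TPM in pup 3, and Clstn1 had 91.8 TPM in pup 1 and 58.7 TPM in pup 3. The giant cadherin Fat1 had 62.8 TPM in pup 1 and 60.6 TPM in pup 3, or 61.7 ± 1.58 TPM (SD, n = 2), and Fat2 had no count. In this list 2 genes passed the 4-fold rule toward pup 1 and 1 toward pup 3. Together these were 37.5% of the 8 with a count, beside 41.0% of all mouse genes with a count.

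Other cell types were read through short marker lists. All 5 markers of radial glia and astrocytes were detected in both pups, as were 3 of 4 mural markers, 3 of 4 microglial markers and 3 of 4 markers of oligodendrocyte precursors. Sox10, which marks the oligodendrocyte lineage, had 23.4 TPM in pup 1 and 0 TPM in pup 3, while Olig2 had 1.18 TPM in pup 1 and 15.4 TPM in pup 3. The 4 markers of choroid plexus and ependyma, Ttr, Folr1, Foxj1 and Aqp1, were at most 0.16 TPM in either library.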
